A study of Mus musculus with 4 samples.

Results

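The genes for 8 Toll-like receptors (Tlr1, Tlr2, Tlr3, Tlr4, Tlr6, Tlr7, Tlr8 and Tlr9), for the lipopolysaccharide co-receptor Cd14 and for the adaptor Myd88 were followed in mouse bone marrow cells in a culture that forms osteoclasts, the multinucleated cells that resorb bone. All probe sets whose gene symbol in the platform annotation was one of these 10 names were taken, which gave 16 of 45101 probe sets, for 10 of 18193 genes. The donors were C57Bl/6J females, 12 weeks old, and RNA was measured on 1 Affymetrix mouse array at each of 4 times. The day 1 array held marrow cells from the day of extraction. The day 4 array held cells cultured for 3 days with serum (10%) and vitamin D3 (10 nM). The arrays of days 5 and 7 held cells that then also received 20 ng/ml M-CSF, a growth factor of macrophages and their precursors, and 40 ng/ml RANKL, the cytokine that drives osteoclast formation, still with 10 nM vitamin D3. Their labels give 4 and 6 days of differentiation, against 3 days for the day 4 array and 0 days for the day 1 array. Time in culture and the cytokines moved together after day 4 and cannot be told apart here. Between day 1 and the later arrays, culture, its length and vitamin D3 changed together, and these cannot be told apart either.

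Toll-like receptors bind microbial molecules and signal through a shared cytoplasmic domain. At the cell surface, Tlr2 pairs with Tlr1 to bind triacylated lipopeptides or with Tlr6 to bind diacylated ones, and Tlr4 binds lipopolysaccharide with the help of Cd14, which delivers it. In endosomes, Tlr3 binds double-stranded RNA, Tlr7 and Tlr8 are receptors of single-stranded RNA, and Tlr9 is a receptor of DNA with unmethylated CpG motifs. All of these except Tlr3 signal through Myd88, while Tlr3 uses the adaptor Ticam1, which Tlr4 can use as well. Monocytes, macrophages and neutrophils carry many of these receptors, and in culture their ligands act on osteoclast formation in a way that depends on how far the precursors have gone towards osteoclasts.

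The values were MAS5 signals, which have no unit beyond that of the array. Signals under 32.4, the median of all non-control values, were set to this floor before log2 differences were taken, and a gene above the floor on 1 of the 2 arrays compared has a bound. Genes that differed 2-fold or more were called. This is a threshold of size, because 1 array a day allows no test and no p-value. Between the arrays, log2 differences of 18 spiked controls had SDs between 0.065 and 0.17, and those of different probe sets for 1 gene had pooled SDs between 0.26 and 0.53. Both describe the measurement and not the spread between cultures. All 4 samples carry the label primary osteoclast, and on day 1 the osteoclast markers were mixed. Of 10 such markers, 6 were above the floor on day 1, with Calcr, Dcstamp, Ocstamp and Oscar under it. The count was 9 on day 4 and all 10 on days 5 and 7. Among those above it on day 1, Mmp9 had a signal of 4173 and Acp5 of 2604. Itgb3 had 1156 on day 1 against 610 on day 7.

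The receptors of lipopeptides, Tlr1, Tlr2 and Tlr6, were lower in culture than in fresh marrow. Tlr1 had signals of 1666, 1032, 642 and 497 on days 1, 4, 5 and 7. The signals of Tlr2 on these days were 2375, 1517, 758 and 899, and those of Tlr6 were 313, 166, 113 and 125. For all 3 genes day 1 was the highest of the arrays, and the lowest was day 7 for Tlr1 and day 5 for Tlr2 and Tlr6. On day 7 over day 1, Tlr1 was 3.35-fold lower and Tlr2 2.64-fold lower, and the log2 difference of Tlr6 was -1.32. Across this comparison they were 3 of the 9 members above the floor, where 16.2% of all genes were at least 2-fold lower. Tlr4, the remaining receptor of the surface group, was not among them, and the median log2 difference of the 4 surface receptors was -1.36, beside 0.01 for all genes.

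**Figure D1:**
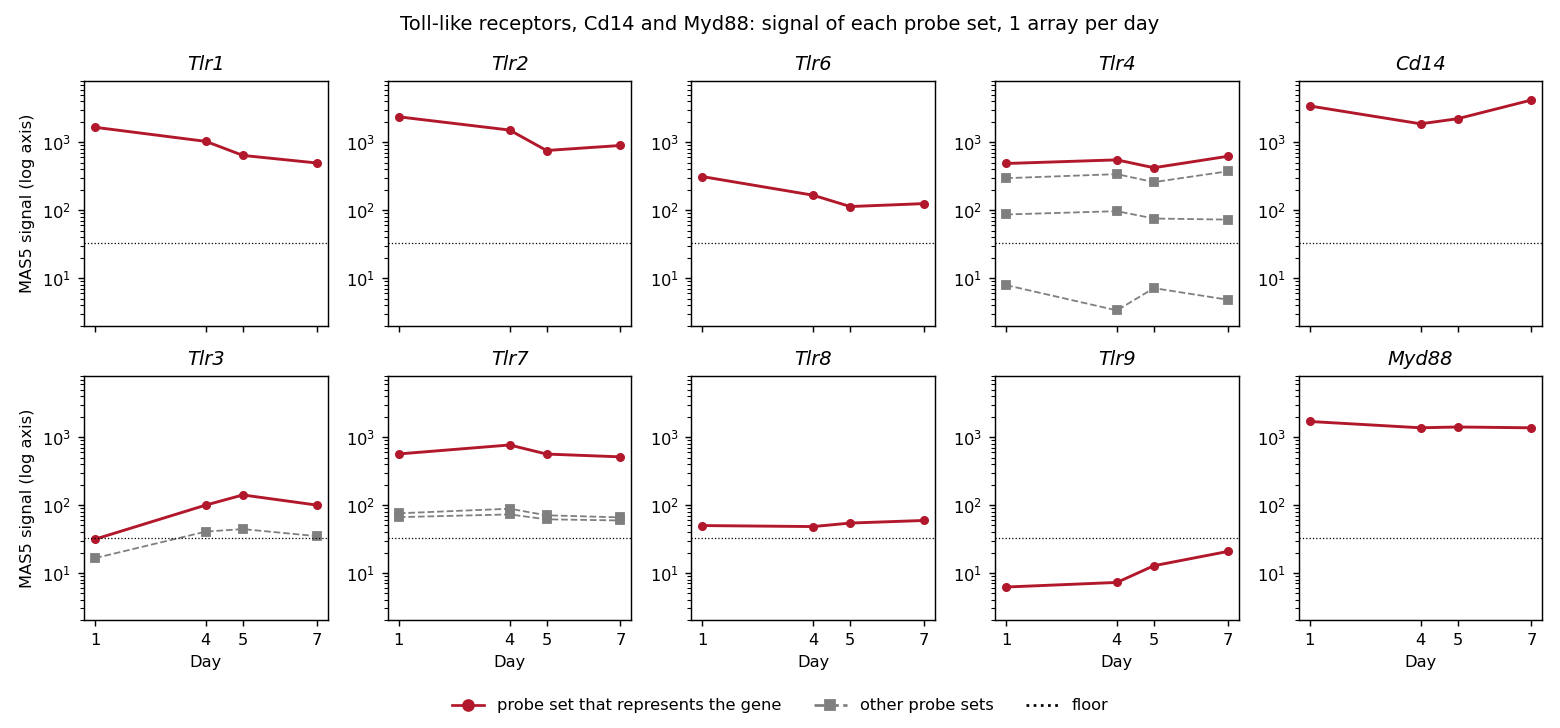
MAS5 signal (log axis) of every probe set of the 10 genes against day, with 1 array a day; red lines are the probe set that represents the gene, grey dashed lines the other probe sets and the dotted line the floor of 32.4. Tlr1, Tlr2 and Tlr6 stand highest on day 1, Cd14 dips on days 4 and 5, and Tlr9 lies under the floor on all days.

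The promoters of these 3 genes and of Tlr3, the other member past 2-fold on day 7 over day 1, are shown because they were called there. All of them lay between the 5th and 95th percentile of all genes in that comparison (-2.15 to 1.64). The call of Tlr3 rests on its representing probe set only. Tlr1 and Tlr6 are neighbours on chromosome 5, and both have a pair of annotated starts. Each window runs from 250 bases before to 50 bases after a start annotated by RefSeq in GRCm38.p6 and is written 5′ to 3′ on the gene's strand. Capitals mark matches, on either strand, to the core of the PU.1 motif (GAGGAA), to the NF-kB consensus and to a motif of interferon regulatory factors (GAAA, any 2 bases, GAAA). The AP-1 motif (TGANTCA) was searched as well.
Tlr1, first start (chr5:64933509-64933808, minus strand): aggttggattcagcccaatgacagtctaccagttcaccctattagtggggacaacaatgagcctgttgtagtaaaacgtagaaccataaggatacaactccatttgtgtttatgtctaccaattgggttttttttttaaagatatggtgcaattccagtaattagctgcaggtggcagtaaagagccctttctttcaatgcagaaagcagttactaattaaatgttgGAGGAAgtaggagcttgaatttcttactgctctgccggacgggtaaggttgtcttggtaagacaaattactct
Tlr1, second start (chr5:64932650-64932949, minus strand): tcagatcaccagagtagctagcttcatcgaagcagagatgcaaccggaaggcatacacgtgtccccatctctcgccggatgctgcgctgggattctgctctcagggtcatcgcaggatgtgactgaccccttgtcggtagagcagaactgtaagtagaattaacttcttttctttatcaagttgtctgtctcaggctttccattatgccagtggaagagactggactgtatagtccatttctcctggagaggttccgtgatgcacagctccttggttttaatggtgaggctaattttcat
Tlr2 (chr3:83841559-83841858, minus strand): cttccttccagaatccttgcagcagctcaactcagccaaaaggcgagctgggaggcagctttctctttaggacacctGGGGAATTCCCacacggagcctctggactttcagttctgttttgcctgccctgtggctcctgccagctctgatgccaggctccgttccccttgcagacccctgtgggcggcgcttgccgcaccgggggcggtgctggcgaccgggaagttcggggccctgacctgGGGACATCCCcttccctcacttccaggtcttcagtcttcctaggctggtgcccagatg
Tlr6, first start (chr5:64959117-64959416, minus strand): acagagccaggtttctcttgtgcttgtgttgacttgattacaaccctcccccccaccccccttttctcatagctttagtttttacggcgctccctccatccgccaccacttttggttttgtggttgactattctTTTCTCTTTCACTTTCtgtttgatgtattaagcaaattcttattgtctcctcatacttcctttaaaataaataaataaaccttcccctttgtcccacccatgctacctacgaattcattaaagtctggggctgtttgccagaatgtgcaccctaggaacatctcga
Tlr6, second start (chr5:64959999-64960298, minus strand): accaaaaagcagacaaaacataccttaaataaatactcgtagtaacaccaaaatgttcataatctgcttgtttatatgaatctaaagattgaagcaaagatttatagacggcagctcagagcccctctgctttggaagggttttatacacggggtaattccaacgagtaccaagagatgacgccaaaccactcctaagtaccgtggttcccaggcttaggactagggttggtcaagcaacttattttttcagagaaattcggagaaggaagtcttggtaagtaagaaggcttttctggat
Tlr3 (chr8:45410331-45410630, minus strand): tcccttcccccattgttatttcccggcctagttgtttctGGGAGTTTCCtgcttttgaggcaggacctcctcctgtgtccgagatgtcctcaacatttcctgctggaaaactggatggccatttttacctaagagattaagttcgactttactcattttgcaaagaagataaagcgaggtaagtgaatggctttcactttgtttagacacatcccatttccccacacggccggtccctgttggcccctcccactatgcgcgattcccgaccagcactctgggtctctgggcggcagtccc

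None of the 4 searched motifs was shared among the windows of Tlr1, Tlr2 and Tlr6. The first window of Tlr1 held the PU.1 core, which 28.3% of 32851 promoter windows of the same table hold. Tlr2 held 3 matches to the NF-kB consensus, of which a pair overlap in the run GGGGAATTCCC, and Tlr3 held 1; 8.46% of all windows have such a match. The first window of Tlr6 held 2 matches to the interferon regulatory factor motif that overlap each other, and 3.44% of all windows have it. AP-1 matches were in none of the 6 windows, against 7.81% of all windows. No 2 different motifs overlapped. Of the other members, 3 had windows that were searched, and no window of Tlr4, Tlr7 or Cd14 was searched. Tlr8 held 1 PU.1 core, Tlr9 held 2 and an AP-1 match, and Myd88 held 1 match to the interferon regulatory factor motif. A match describes letters and not a bound site.

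The values of the 3 genes are given by interval, and with 1 array a day a difference in timing between them was not tested. Between days 4 and 1 (day 4 over day 1) their log2 differences were -0.69 for Tlr1, -0.65 for Tlr2 and -0.91 for Tlr6, and none was called, where 8.65% of all genes were at least 2-fold lower. On day 5 over day 4 Tlr2 was 2.00-fold lower, with a signal of 758 on day 5 and 1517 on day 4, just past the threshold, and it was not called when 16 was added to each signal in place of the floor. It was the only member of 9 called in that interval, in which 4.04% of all genes were lower and 2.02% higher. Tlr1 had a log2 difference of -0.69 in the same interval and Tlr6 of -0.55. From day 5 on the genes parted in sign: on day 7 over day 5 Tlr1 had a log2 difference of -0.37, against 0.25 for Tlr2 and 0.14 for Tlr6. None of these last values reached 2-fold, and those of Tlr2 and Tlr6 were under the pooled SD of 0.26 between probe sets of a gene. Set against day 4, Tlr1 on day 7 was 2.08-fold lower, the only member called lower of 9, where 9.12% of all genes were. It was not called after quantile normalization (-0.97) or median scaling (-0.89).

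Cd14 followed another course, with a dip in the middle of the culture. Its signals were 3432, 1874, 2226 and 4197 on days 1, 4, 5 and 7, so days 1 and 7 were the high arrays and days 4 and 5 the low ones. Cd14 was 2.24-fold higher on day 7 over day 4, the only member called higher of 9, where 3.12% of all genes were at least 2-fold higher. On day 4 over day 1 its log2 difference was -0.87, and on day 5 over day 4 it was 0.25. The difference on day 7 over day 5 was 0.91, under the threshold, and 1.09 after median scaling, past it. Over the whole time, on day 7 over day 1, the difference was 0.29.

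Tlr4, which encodes the lipopolysaccharide receptor itself, stayed within 2-fold in all 5 comparisons. Its representing probe set had signals of 488, 552, 423 and 623 on days 1, 4, 5 and 7. The second probe set, designed on the same transcript accession, had 296, 340, 259 and 374. In both, day 7 was the highest array and day 5 the lowest. Their log2 differences on day 7 over day 5 were 0.56 and 0.53. Another probe set, with signals of 86.6, 96.9, 75.5 and 72.8, had -0.05 in that comparison. Set against days 4 and 1, its day 7 differences were -0.41 and -0.25, where the representing probe set had 0.17 and 0.35, so the direction of all 3 day 7 comparisons depends on the probe set. The remaining one, between 3.34 and 7.89, was under the floor on all arrays.

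Because both genes were read on the same array, the ratio of Cd14 to Tlr4 does not depend on a factor that scales a whole array. This ratio was 2.07-fold lower on day 4 than on day 1. It was 1.99-fold higher on day 7 than on day 4, and on day 7 over day 1 it differed by -0.06 on the log2 scale. The ratios of the lipopeptide receptors to Tlr4, in contrast, stayed low. The ratio to Tlr4 on day 7 over day 1 was 4.28-fold lower for Tlr1, 3.37-fold lower for Tlr2 and 3.19-fold lower for Tlr6. That of Myd88 was 1.58-fold lower. These ratios rest on the representing probe set of Tlr4, and the one on the same accession gave similar values, with 4.23-fold lower for Tlr1 on day 7 over day 1 and 2.04-fold higher for Cd14 on day 7 over day 4. With the probe set that differed in sign, an alternative chosen after seeing the data, the ratios on day 7 over day 1 were 2.82-fold lower for Tlr1, 2.22-fold lower for Tlr2 and 2.10-fold lower for Tlr6. For Myd88 the log2 ratio was then -0.06. The Cd14 ratio was then 2.98-fold higher on day 7 over day 4 and 0.54 on the log2 scale on day 7 over day 1, and 2.05-fold lower on day 4 over day 1. All are ratios of changes, and levels of different probe sets were not compared.

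Among the endosomal receptors, Tlr3 was higher in culture than in fresh marrow. Its representing probe set had a signal of 31.5 on day 1, just under the floor, and of 99.99, 141 and 99.95 on days 4, 5 and 7. On day 4 over day 1 it was at least 3.08-fold higher, the only member called higher of 9, where 10.0% of all genes were. The bound was the same 3.08-fold on day 7 over day 1, where 12.7% of all genes passed 2-fold upwards and Tlr3 was again the only member. The second probe set of Tlr3 had 16.6 on day 1 and 40.7, 44.2 and 34.8 on days 4, 5 and 7, also with day 1 lowest. Its bounds against the floor were 1.25-fold and 1.07-fold, under the threshold. The call thus rests on the first probe set, whose design can match several transcripts, and it was lost without such probe sets, with the mean over probe sets, and with the floor at the 60th percentile.

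The other endosomal receptors stayed within 2-fold or under the floor. Tlr7 had signals of 566, 767, 564 and 513 on days 1, 4, 5 and 7, highest on day 4, and a log2 difference of -0.58 on day 7 over day 4. Its other probe sets, both designed on the same expressed sequence tag, had the same order, with 75.6, 88.3, 70.7 and 65.8 in the first and 66.4, 72.8, 61.6 and 59.3 in the second. All 3 probe sets were highest on day 4 and lowest on day 7. Tlr8, the neighbour of Tlr7 on the X chromosome, was near the floor, with 49.9, 48.2, 54.3 and 59.3. Tlr9 was under the floor throughout, at 6.20, 7.25, 12.8 and 20.7, and was not compared. Whether that reflects the transcript or the probe set was not tested. Without a platform threshold for detection, a value under the floor shows only a signal in the lower part of the array.

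Myd88, through which most of these receptors signal, stayed within 2-fold and was level from day 4 on. Its signals were 1702, 1375, 1412 and 1374 on days 1, 4, 5 and 7. Day 1 was the highest, and the log2 difference of Myd88 on day 7 over day 1 was -0.31. That is within the pooled SD of 0.53 between probe sets of a gene. The spiked controls had a smaller SD of 0.17 in that comparison, around a median of -0.18. The values of days 4, 5 and 7 lay within 1.03-fold of each other.

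**Figure D2:**
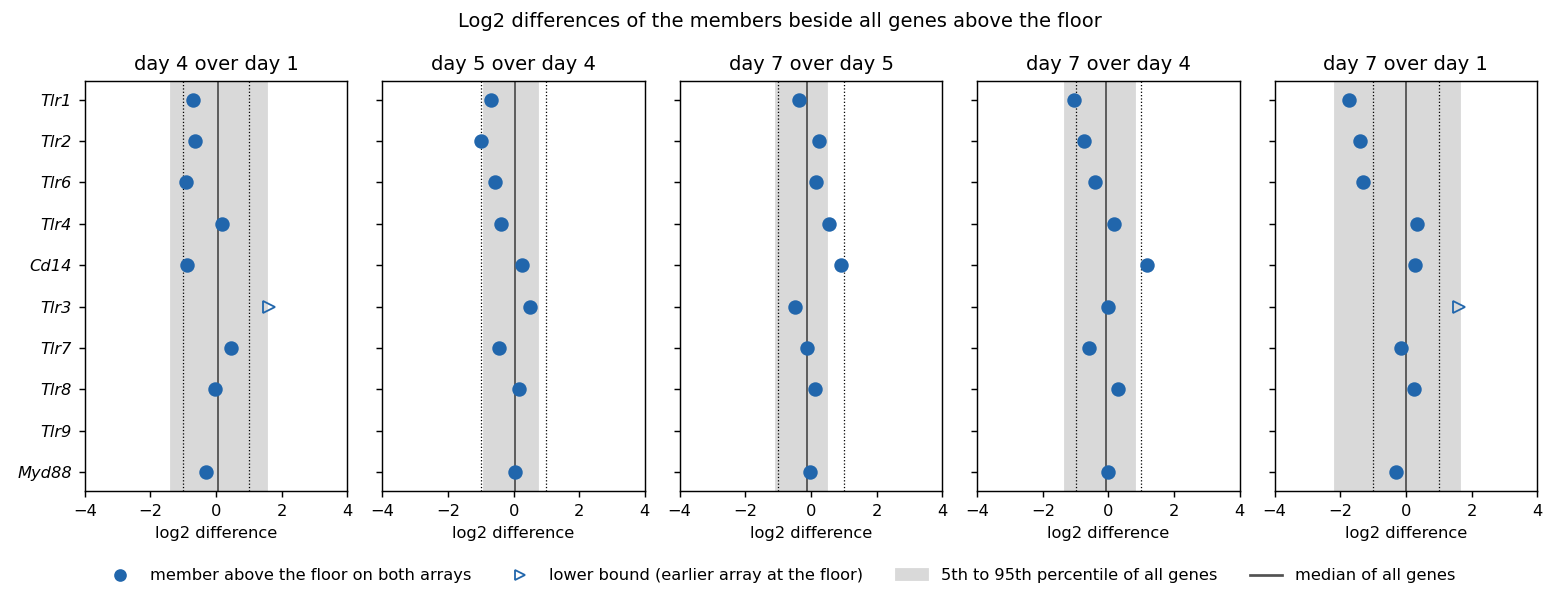
Log2 difference of each member (rows) in the 5 comparisons (panels), with filled points where both signals exceeded the floor and open triangles for lower bounds; grey bands hold the 5th to 95th percentile of all genes above the floor, the grey line their median, and dotted lines mark 2-fold. In day 7 over day 1, Tlr1, Tlr2 and Tlr6 lie left of the lower dotted line and Tlr3 right of the upper one. All of them lie within the grey band of that panel (-2.15 to 1.64). Tlr3 stands above the band in day 4 over day 1, and Tlr2 stands below it in day 5 over day 4. Cd14 stands above the band in day 7 over day 5 and day 7 over day 4. Tlr4 stands above it in day 7 over day 5 by its representing probe set, while another probe set had -0.05 there.

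Taking the members as a list, 9 of 10 were above the floor in each comparison and Tlr9 in none. Their median log2 difference was -0.31 for day 4 against day 1 and -0.39 for day 5 against day 4, beside 0.06 for all genes in both. It was 0.13 on day 7 over day 5 (all genes -0.11) and -0.14 on day 7 over day 1 (all genes 0.01). No member was called in either direction on day 7 over day 5, where 0.853% of all genes were higher and 5.84% lower. The split of calls over all genes depended on the scaling. Of the genes called on day 7 over day 5, 12.7% were higher as deposited, 31.6% with quantile normalization and 27.2% with median scaling. For day 7 over day 4 these shares were 25.5%, 43.7% and 39.9%, and for day 7 against day 1 they were 43.9%, 56.2% and 53.1%. The median of all genes on day 7 over day 1 moved to 0.17 and 0.14 under these scalings. Relative to that median, Tlr1 had -1.75 as deposited, -1.85 with quantile normalization and -1.74 with median scaling. Tlr2 had -1.41, -1.62 and -1.40 in the same order, and Tlr6 had -1.33, -1.20 and -1.32.

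Other genes with the most similar courses were found by the root mean square difference (RMS) between log2 profiles over the 4 arrays, each centred on its own mean, among 10034 genes above the floor on all arrays. For Tlr1 these were Zfp740 (RMS 0.027), Zfp866 (0.032) and Rab43 (0.048). For Tlr2 they were Apobec1 (0.041), which encodes an RNA-editing enzyme, Eef2k (0.045), the kinase of an elongation factor, and Pink1 (0.068), a mitochondrial kinase. Apobec1 had signals of 2476, 1661, 850 and 1002 on days 1, 4, 5 and 7. For Tlr6 they were Exoc6 (0.012), a subunit of the exocyst, Chka (0.030), a choline kinase, and Dubr (0.043). For Cd14 they were Otud7b (0.026), a deubiquitinase, Dppa3 (0.064) and Enpp5 (0.070). No member was among the 3 nearest genes of another. With 4 arrays many genes can come this close, and likeness is a description only.

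Of the other Toll-like receptor genes, 3 of 4 listed ones were on the array and none was called in any comparison. Tlr13, a receptor of bacterial ribosomal RNA in mice, had signals of 1927, 2005, 1444 and 1445 on days 1, 4, 5 and 7. Tlr5, the flagellin receptor, was near the floor, between 34.1 and 49.9, and Tlr12 was above it on day 7 only, at 34.6. Among 10 genes for co-receptors and chaperones, Cd36, a scavenger receptor that can assist Tlr2 and Tlr6, was 2.71-fold higher on day 4 over day 1, and Lbp, which encodes the lipopolysaccharide-binding protein, was 3.90-fold lower. Lbp was 8.54-fold lower on day 7 over day 1, with a signal of 119.6 on day 7 against 1021 on day 1. The Tlr4 partner Ly96 had 728, 915, 745 and 732 on days 1, 4, 5 and 7 and the endosomal transport chaperone Unc93b1 had 2144, 2056, 1522 and 1249. Neither reached 2-fold in any comparison. Tlr11 and the pathway genes Ticam2, Irak4, Traf3, Chuk, Nfkb1 and Il1rl1 were not analysed here.

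Adaptors and kinases were mostly level. Of 13 measured, none was called on day 4 over day 1, where 10.0% of all genes were higher and 8.65% lower. None was called on day 5 over day 4 (2.02% and 4.04%) or day 7 over day 5 (0.853% and 5.84%). At these lower shares few of 13 genes would be called in any case. By day 7, set against day 1, 2 were lower: Ikbke, a kinase that activates interferon regulatory factors, by 2.72-fold, and Irak2, a kinase downstream of Myd88, by 2.12-fold. That count is near the share of 16.2% among all genes. Under both other scalings 1 of the 13, Ikbke, was lower. The adaptor genes Ticam1 and Tirap had signals of 186, 183, 149 and 137 and of 631, 568, 552 and 406 on days 1, 4, 5 and 7. Traf6, the ubiquitin ligase that both RANK and Myd88 signal through, had 238, 180, 224 and 208.

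Of 9 measured transcription factors, 5 were lower on day 7 over day 1 and none was higher, beside 16.2% lower and 12.7% higher among all genes (median -1.09, all genes 0.01); with quantile normalization and with median scaling 4 were lower, with Rel no longer among them. Irf7, which drives type I interferon genes, was 3.91-fold lower, Nfkbiz, an inducible regulator of NF-kB targets, 3.67-fold, Irf8, a factor of the monocyte lineage, 3.17-fold and the NF-kB subunit gene Relb 2.53-fold. Irf7 was already 5.41-fold lower on day 4 over day 1. Irf8 was 2.07-fold lower on day 5 over day 4, and Nfkbiz 2.22-fold lower on day 7 over day 5. Of 9 measured inhibitors of the pathway, 3 were lower on day 7 over day 1 and none was higher, beside the same shares of all genes (median -0.53, all genes 0.01). Irak3, which restrains Myd88 signalling and is known from monocytes and macrophages, had signals of 1354, 686, 399.7 and 361 on days 1, 4, 5 and 7 and was 3.75-fold lower on day 7 over day 1. Sigirr was 3.38-fold lower and Tnfaip3, which encodes the ubiquitin editor A20, 2.13-fold; after median scaling Tnfaip3 was no longer called.

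Receptors of interleukins that also signal through Myd88 went both ways. Il1r1, the interleukin-1 receptor gene, was just under the floor on day 1, at 30.5, with 217, 333 and 110 on days 4, 5 and 7. It was at least 6.68-fold higher on day 4 over day 1 and 3.02-fold lower on day 7 over day 5. The stromal markers, which cover another cell type in this culture, had a similar course, with a summed signal of 1945, 27610, 36623 and 24926 on days 1, 4, 5 and 7 over 9 genes, and their part in the Il1r1 values was not tested. Il18rap and Il18r1, the subunits of the interleukin-18 receptor, were 6.82-fold and at least 5.35-fold lower on day 4 over day 1. Of 3 T and NK cell markers measured in that comparison, 2 were lower, where 8.65% of all genes were. These were Nkg7 by 18.4-fold and Cd8a by 2.34-fold. The summed signal of T and NK cell markers was 892, 129, 99.3 and 71.3 on days 1, 4, 5 and 7. The part of these cells in the Il18rap and Il18r1 values was not tested. Il18rap was under the floor on day 7, at 7.45 against 1113 on day 1, a bound of at least 34.3-fold lower.

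Genes that this pathway is known to induce were mostly lower at the end of the culture. Of 12 measured on day 7 over day 1, 7 were lower and 1 was higher, beside 16.2% lower and 12.7% higher among all genes (median -1.43, all genes 0.01). Il1b, the interleukin-1 beta gene, was 55.8-fold lower, with signals of 2846, 383, 102 and 51.0 on days 1, 4, 5 and 7. The chemokine gene Cxcl2 was 12.9-fold lower, the itaconate-forming enzyme gene Acod1 12.2-fold and the gene for a subunit of interleukin-12, Il12a, at least 8.99-fold. The prostaglandin synthase gene Ptgs2 was 7.25-fold lower. Its signals were 375, 433, 597 and 51.6, so it was low on day 7 only. The chemokine genes Ccl3 and Ccl4 had their highest signals on day 7, as Cd14 did. Ccl3 had 1978, 1119, 1490 and 3311 and was 2.96-fold higher on day 7 over day 4, and Ccl4 had 1269, 966, 1457 and 2608 and was 2.70-fold higher. Tnf had 359, 287, 286 and 329 and was not called in any comparison. After quantile normalization 6 of the 12 were lower on day 7 over day 1, and Il10 was the 1 called higher in place of Ccl4. Neutrophil and monocyte markers were mostly lower on day 7 over day 1 as well, and macrophage markers mostly higher. The part of these cells in the values of the targets, transcription factors and inhibitors was not tested.

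**Figure D3:**
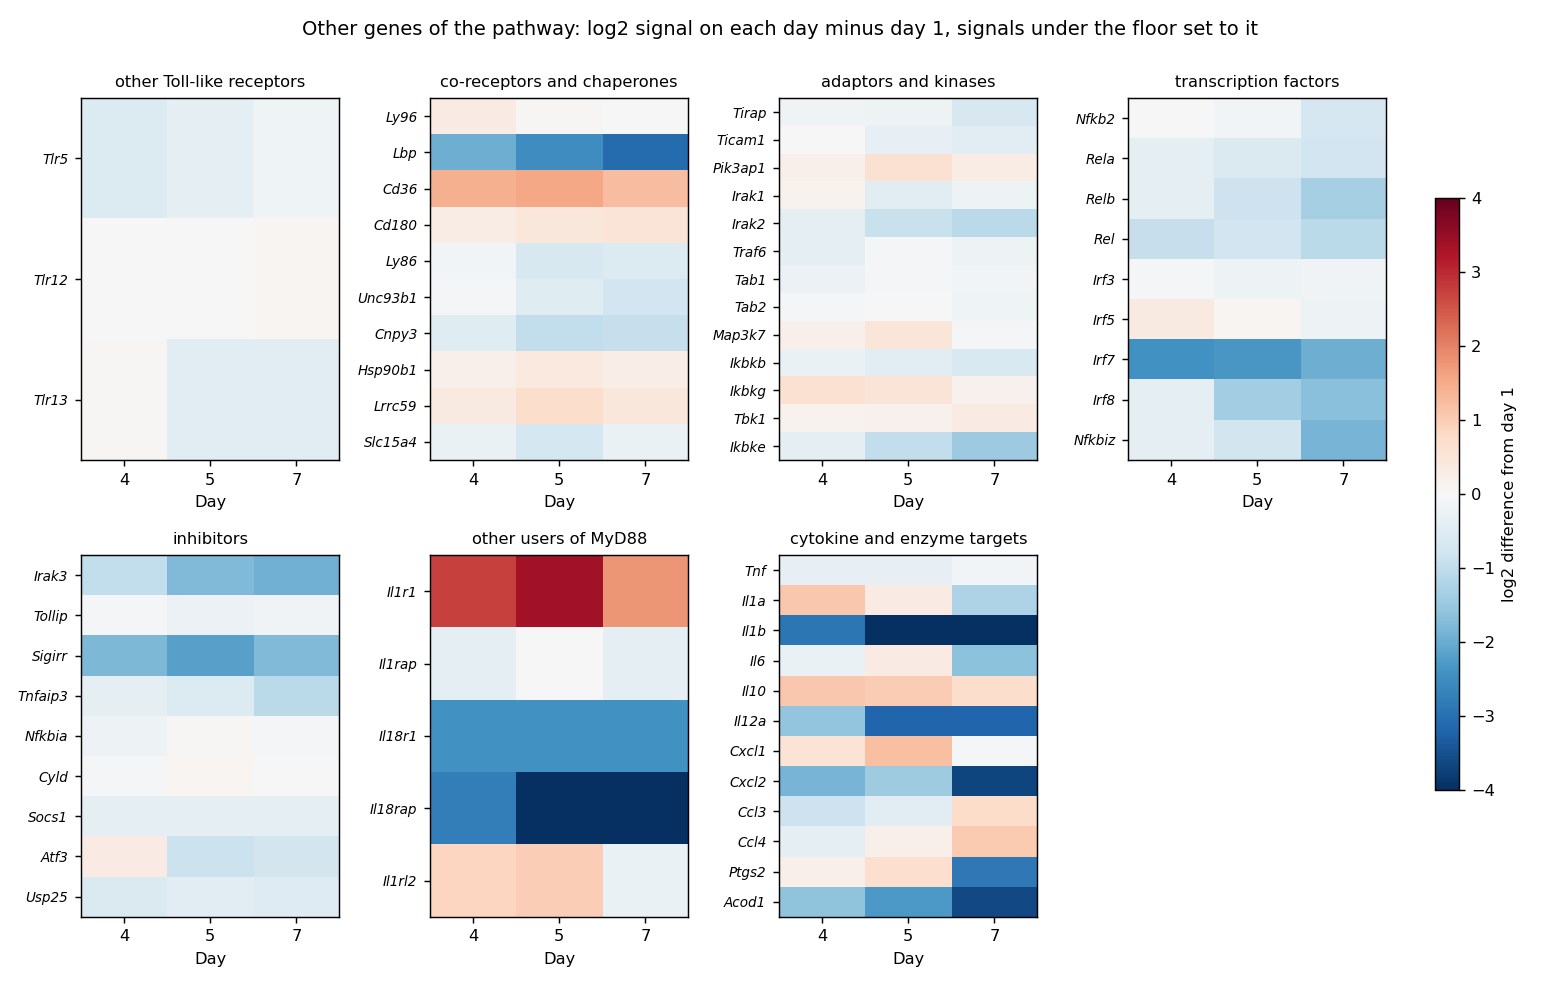
Log2 difference of each listed pathway gene on days 4, 5 and 7 from day 1, by list, with red for higher and blue for lower; signals under the floor were set to it and colours end at a log2 difference of 4 in either direction. Lbp, Irf7, Irak3, Il18rap, Il1b, Cxcl2 and Acod1 are blue on every day, Cd36 and Il1r1 are red, and most adaptors and kinases are pale.

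Markers of the cells that carry these receptors moved on the same arrays. The array reads a mixed culture, in which fewer cells of a type and less RNA per cell cannot be told apart. The summed signal of 10 neutrophil markers was 110024, 68333, 36928 and 5269 on days 1, 4, 5 and 7. All 10 were lower on day 7 over day 1, and Elane and Cxcr2 were under the floor on day 7. Of 6 monocyte markers, 5 were lower on day 7 over day 1, with Ccr2 under the floor on day 7, and their summed signal was 16820, 11150, 14556 and 7261. The 10 macrophage markers went the other way, with 6 higher and none lower on day 7 over day 1, and sums of 39787, 74284, 69081 and 70668. On day 7 over day 1, Tlr1, Tlr2 and Tlr6 were lower, as were neutrophil and monocyte markers, and macrophage markers were higher. On day 5 over day 4 these receptors, the neutrophil sum and the macrophage sum were lower, and the monocyte sum was higher. The monocyte markers were mixed in that interval, with 4 of 6 higher and 2 lower. Fn1 had the largest signals, at 4821 on day 4 and 7250 on day 5. Itgam was 2.25-fold higher and Cx3cr1 2.17-fold lower. The part of neutrophils, monocytes and macrophages in the receptor values was not tested.

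Markers of lymphoid and dendritic cells were mostly lower too, while those of plasmacytoid dendritic cells were mixed. Of 8 B cell markers, 7 were lower on day 7 over day 1, with sums of 5527, 2079, 656 and 272 on days 1, 4, 5 and 7. Of 8 dendritic cell markers on the array, 7 were measured in this comparison and 5 were lower, and the sums were 11975, 7047, 2004 and 829.9. Flt3, Zbtb46, Xcr1, Cd209a and Ccr7 were under the floor on days 5 and 7. The 7 plasmacytoid dendritic cell markers, of a cell type known for Tlr7 and Tlr9, had sums of 4928, 3007, 3765 and 3774. Of these, 4 were lower and none was higher on day 7 over day 1, with Siglech, Ccr9 and Pacsin1 under the floor on day 7. Bst2, which other cells express as well, held 2680 of the day 7 sum, with signals of 1760, 1322, 2330.5 and 2680 on the 4 days, and was 2.03-fold higher on day 7 over day 4. Tlr7 was within 2-fold on these arrays. The osteoclast markers had sums of 9542, 28748, 47098 and 55556, and Cd14, at 4197 on day 7 and 1874 on day 4, was the only member called higher between the arrays before and at the end of the time with M-CSF and RANKL. Its dip on day 4 fell on an array where monocyte sums were lower, and macrophage and osteoclast sums higher, than on day 1; their part in it was not tested.

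**Figure D4:**
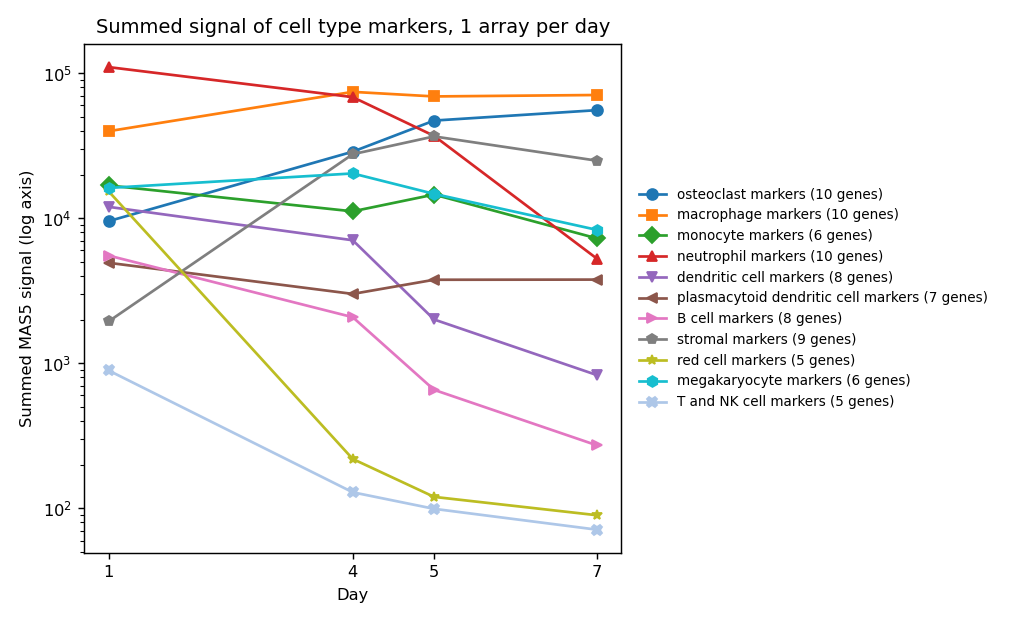
Summed MAS5 signal (log axis) of the genes of each cell type list against day, with 1 array a day; symbols name the list and the number of its genes on the array. Neutrophil markers are highest on day 1 and at 5269 on day 7, while osteoclast markers are at 55556 on day 7 against 9542 on day 1.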

How the data were processed

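Signals of 45101 probe sets were used for 4 samples of mouse bone marrow cells, 1 array each. The authors deposited linear intensity values, which the submitters' processing notes credit to GCOS 1.4 and MAS5; no scaling target is stated in the sources used here. Per the labels' protocols, Trizol and RNeasy were used for extraction, and the RNA was labelled with biotin. The 64 control probe sets were left out. The platform annotation gives 1 symbol for 34945 of the others, several for 932 and none for 9160; only the first were named. Platform Entrez numbers matched all 10 members to RefSeq (GRCm38.p6). Promoter windows of members on chromosome 18, where Cd14 lies, were not searched, and 7 members had windows that were. A gene was represented by the probe set whose floored log2 signal had the highest mean, and 46.6% to 52.6% of probe sets were above the floor on an array. Precision is limited by the number of arrays.

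Each label gives the day. Day 4 was compared with day 1, day 5 with day 4, and day 7 with days 5, 4 and 1, always as the later over the earlier; comparisons that share an array are not independent. No test was possible. All members were named, and of other lists up to 4 genes called at 2-fold for each comparison, plus a few pathway genes. A likeness was sought for members above the floor on all arrays with a log2 range of at least 1. The members and lists were chosen with earlier results of these data known. The counting was tested on simulated data. The alternatives were floors at the 25th and 60th percentiles (8.43 and 68.9), no floor with 16 added, quantile normalization, scaling to the same median of probe sets above the floor on every array, averaging a gene's probe sets, and dropping those designed for several transcripts. Python 3.11.15 was used with numpy 2.4.6, pandas 2.3.3 and matplotlib 3.10.9.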

Additional observations from a re-analysis of the deposited data

How the results depend on the processing

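Of 310 log2 differences of members recomputed under the 7 alternatives, 298 moved by less than the pooled SD of probe sets of the same gene, 12 by more, and 0 called differences changed sign. The counts of members that did not keep their value were these. With the floor at the 25th percentile, 2 members were higher on day 7 against day 4 and 2 against day 1, because Tlr9 then counted as above the floor. With the floor at the 60th percentile, with the mean over probe sets, and without probe sets for several transcripts, 0 were higher on day 4 and 0 on day 7, both against day 1, since Tlr3 was not called. With 16 added in place of a floor, 0 were lower on day 5 over day 4. Quantile normalization and median scaling each gave 0 lower on day 7 over day 4, and median scaling gave 1 higher on day 7 over day 5, Cd14. The 3 members lower on day 7 over day 1 were Tlr1, Tlr2 and Tlr6 under every alternative, with log2 differences of -1.75 to -1.61, -1.45 to -1.26 and -1.32 to -1.03. Cd14 was called higher on day 7 over day 4 in all of them (1.03 to 1.33). No paired analysis was possible because each day had 1 array, and for the same reason no array could be left out of a group. Signals near the floor, as for Tlr3, Tlr8 and Tlr9, carry the least information.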
